A study of Mus musculus with 6 samples.

Results

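The genes described here encode 10 surface receptors by which macrophages bind and take up sugars, damaged proteins, haemoglobin complexes, folate and hyaluronan, and which are used as labels of the alternative macrophage state: Mrc1, Clec7a, Clec4n, Clec10a, Mgl2, Stab1, Cd163, Marco, Folr2 and Lyve1. They were taken from the 35275 genes of the deposited count table by symbol, and all 10 were found. Poly-A RNA was measured by sequencing in whole kidneys from wild-type C57Bl/6 mice at day 28 after ischaemia-reperfusion injury, in which blood flow to the kidney is stopped and restored. Ischaemia lasted 20 min in the mild group (3 libraries, numbered 7, 8 and 9) and 35 min in the severe group (3 libraries, numbered 13, 14 and 15). Both groups share the genotype, the operation and the day of killing. Uninjured kidneys, age and sex were not analysed here. The comparison asks how the length of ischaemia is related to the receptors that kidney macrophages carry as acute injury passes into chronic disease.

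Macrophages recognise carbohydrates through C-type lectins, whose lectin domain binds mannose, fucose, beta-glucan or galactose. Some of these lectins, such as the mannose receptor, bring their ligands into endosomes, and others, such as Dectin-1 and Dectin-2, signal through the kinase Syk and the adaptor Card9. Scavenger receptors clear modified proteins, haemoglobin-haptoglobin complexes and particles. In mouse tissues Cd163, Folr2 and Lyve1 mark resident macrophages beside blood vessels, Mrc1 and the galactose-type lectins are induced by interleukin-4 through the factor STAT6, and Lyve1 and Stab1 are also made by lymphatic or sinusoidal endothelium.

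Clec10a (MGL1) and Mgl2 (MGL2) are neighbouring close copies, and part of their coding sequence is identical. Both lie on the plus strand of chromosome 11 with 18646 bases between them. The longest transcripts of GENCODE M21 share an unbroken run of 183 bases, which spans parts of exons 6 to 8 of Clec10a and 7 to 9 of Mgl2. The run is shown with 20 bases on either side, all of it coding, because reads that lie wholly within the run could belong to either gene. Capitals mark the 4 bases that differ.
Clec10a, chr11:70169802-70170209 (exonic bases, GRCm38, plus strand): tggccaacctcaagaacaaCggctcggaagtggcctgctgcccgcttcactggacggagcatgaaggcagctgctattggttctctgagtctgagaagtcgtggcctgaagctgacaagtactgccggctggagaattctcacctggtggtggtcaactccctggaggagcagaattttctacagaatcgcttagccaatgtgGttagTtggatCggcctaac
Mgl2, chr11:70136317-70136719 (exonic bases, GRCm38, plus strand): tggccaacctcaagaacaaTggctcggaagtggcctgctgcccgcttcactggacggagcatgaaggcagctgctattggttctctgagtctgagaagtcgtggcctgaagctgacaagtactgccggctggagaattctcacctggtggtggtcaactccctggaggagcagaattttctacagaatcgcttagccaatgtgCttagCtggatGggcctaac
Of all stretches of 50 bases, 10.6% of those in Clec10a also occurred in Mgl2, and 15.3% of those in Mgl2 occurred in Clec10a. By the same measure Folr2 shared 0 of its 1155 stretches with its neighbour Folr1, and Clec4n shared 0 of 1355 with Clec4d, Clec4e or Clec4a2. How the authors' counting treated reads with several matches is not given in the sources used here, so the Clec10a and Mgl2 values below are uncertain to that extent.

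RefSeq (GRCm38.p6) gave promoter windows, from 250 bases before to 50 bases after a transcription start, for 7 of the 10 genes, all but Clec10a, Clec4n and Lyve1. They were searched on both strands for AGGAAGT, a form of the site of the myeloid factor PU.1, and for TTC and GAA parted by any 4 bases, the palindromic site of STAT6. The first motif was found in windows of 3 of the 7 genes (Mrc1, Folr2 and Mgl2), against 10.7% of all 27025 genes with a window. With a G before it, the same motif was in 0 of the 7 and in 3.69% of all genes. The second was found in 1 of the 7 (Clec7a), against 8.01% of all genes. The windows of Mrc1, Mgl2 and Clec7a are printed with the matches in capitals, since these 3 genes carry a match beside the gene start used in the count table.
Mrc1, chr2:14229164-14229463 (plus strand): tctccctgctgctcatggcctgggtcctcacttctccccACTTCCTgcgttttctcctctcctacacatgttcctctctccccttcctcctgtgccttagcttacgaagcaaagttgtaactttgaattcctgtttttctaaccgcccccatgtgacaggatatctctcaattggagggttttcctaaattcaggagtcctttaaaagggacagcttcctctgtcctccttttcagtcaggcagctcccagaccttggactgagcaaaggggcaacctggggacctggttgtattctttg
Mgl2, chr11:70130107-70130406 (plus strand): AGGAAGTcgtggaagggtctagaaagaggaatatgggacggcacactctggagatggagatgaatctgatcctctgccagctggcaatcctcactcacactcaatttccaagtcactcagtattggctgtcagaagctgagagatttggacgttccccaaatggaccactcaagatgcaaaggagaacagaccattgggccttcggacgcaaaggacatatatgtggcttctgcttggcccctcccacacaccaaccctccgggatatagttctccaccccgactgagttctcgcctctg
Clec7a, chr6:129472730-129473029 (minus strand): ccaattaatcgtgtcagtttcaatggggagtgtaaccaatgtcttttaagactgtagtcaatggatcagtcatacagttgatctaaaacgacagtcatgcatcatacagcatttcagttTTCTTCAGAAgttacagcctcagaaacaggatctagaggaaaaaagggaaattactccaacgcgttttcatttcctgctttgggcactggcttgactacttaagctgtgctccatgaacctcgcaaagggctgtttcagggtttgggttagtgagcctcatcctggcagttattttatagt
The matches begin 211 bases before the start in Mrc1 (on the opposite strand), 250 bases before it in Mgl2 and 131 bases before it in Clec7a. The Folr2 matches lie in the window of an upstream start (chr7:101857141-101857440), and the window at the gene start of the count table (chr7:101845282-101845581) held neither motif. The Cd163, Stab1 and Marco windows held neither.

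The libraries held 15240491 to 17730967 gene counts. Levels are given as CPM, the usual scaling of counts to a common library total, here adjusted by TMM, a factor that corrects for a few strongly changed genes. Kidney identity was checked with 12 epithelial markers, whose CPM summed to 18500 to 19700 in mild and 9340 to 16900 in severe libraries. Of the 14883 genes tested, 73.0% had the larger SD in the severe group. Severe library 14 held the highest of the 6 values for 34.7% of them.

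After the longer ischaemia, mRNA of Clec4n, Clec7a and Mrc1 stood highest relative to mild kidneys, at 5.71, 3.10 and 2.94 times the mild mean CPM. Clec10a, Mgl2, Stab1 and Cd163 stood at 1.73 to 2.05 times it, and Folr2 at 1.11 times. Of the 10 genes, 8 had enough counts for the test and 2, Lyve1 and Marco, did not. None of the 8 passed the threshold of 0.05 (edgeR, quasi-likelihood; p adjusted by Benjamini-Hochberg from 0.0867 to 0.676), in a comparison in which 0.0134% of all tested genes passed it and 0.00672% passed it as higher. At an unadjusted p under 0.05, 7 of the 8 were higher and 0 lower, against 15.8% of all tested genes that were higher. Every severe library stood above every mild library for 5 of the 8, against 17.9% of all tested genes. The median log2 fold change was 0.99 over the 8 and 0.00 over all tested genes.

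These calls depended on the tool and on single libraries. With DESeq2 5 of the 8 passed as higher (Clec4n, Clec7a, Mrc1, Stab1 and Mgl2), against 6.88% of all tested genes. With limma-voom and sample quality weights 7 passed, against 18.2%. With limma-voom without these weights 0 of the 8 passed, and 2 of the 14883 tested genes did. Without a filter on low counts 1, Clec7a, passed in edgeR, against 0.591%. Without severe library 13, where Lyve1 also had enough counts, 7 of 9 passed, all but Folr2 and Lyve1, against 13.8% of all genes, and without severe library 14 Clec4n and Clec7a passed, 2 of 8, against 2.4%.

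**Figure D1:**
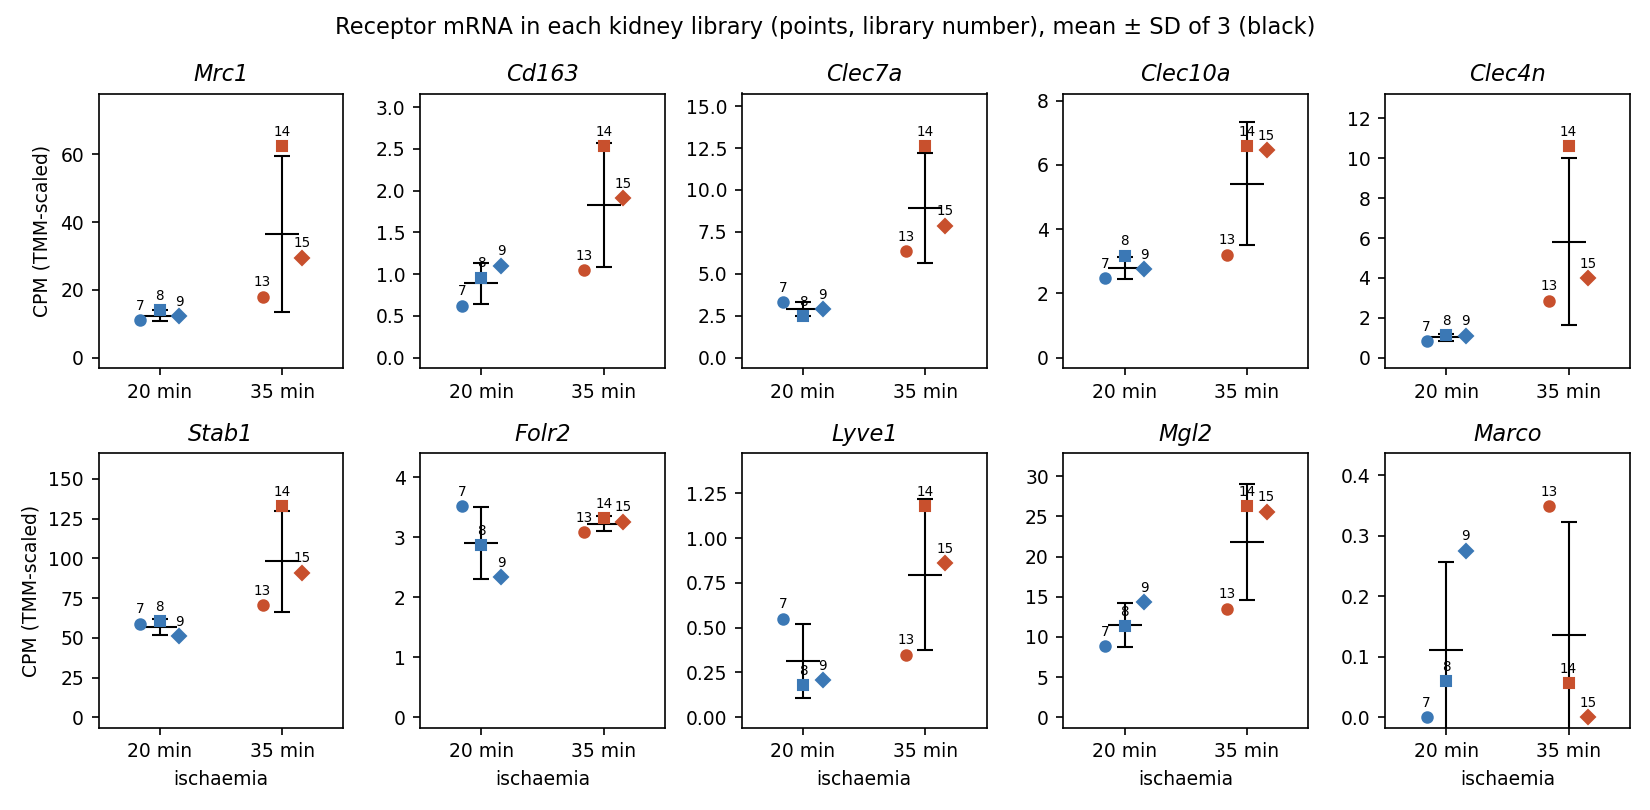
CPM of the 10 receptors (vertical axes, each starting near 0) in the 3 libraries after 20 min and the 3 after 35 min of ischaemia; points are libraries with their numbers, black marks are mean ± SD (n = 3), and the lower bars of Marco are cut at the axis. Severe library 14 is the highest point for 8 of the 10 genes, and Folr2 is level between the groups at 2.91 and 3.22 CPM.

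Mrc1 (ENSMUSG00000026712; chromosome 2, plus strand, 14229414 to 14332057, mm10) encodes the mannose receptor CD206, which takes up mannose-bearing glycoproteins and collagen fragments. It stood at 11, 14.1 and 12.2 CPM in mild libraries 7, 8 and 9 and at 18, 62.4 and 29.5 CPM in severe libraries 13, 14 and 15. The groups did not overlap, and library 14 was far above the other severe libraries, so that the severe SD (23.1 CPM) was larger than that of the mild group (1.53 CPM). Its log2 fold change was 1.56 ± 0.41 (SE; edgeR adjusted p = 0.107). It was 0.93 without severe library 14 and 1.89 without severe library 13.

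Clec7a (ENSMUSG00000079293; chromosome 6, minus strand, 129461591 to 129472777) encodes Dectin-1, the receptor for beta-glucan. It stood at 3.31, 2.46 and 2.88 CPM in mild libraries 7, 8 and 9 and at 6.34, 12.6 and 7.87 CPM in severe libraries 13, 14 and 15. All severe libraries were above all mild ones by a wide margin, library 13 included. The log2 fold change was 1.64 ± 0.28 (edgeR adjusted p = 0.0867), and it lay between 1.30 and 1.84 when any 1 library was left out. The table holds a second row named Clec7a (ENSMUSG00000102040; chromosome 6, minus strand, 129463041 to 129472685), which lies wholly within the first and has 0 counts in all 6 libraries. Depending on the counting mode, reads from the shared part could have been assigned to neither row, so the level of Clec7a may be understated.

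Clec4n (ENSMUSG00000023349; chromosome 6, plus strand, 123229843 to 123247021) encodes Dectin-2, which binds mannan-type sugars. It stood at 0.827, 1.14 and 1.10 CPM in mild libraries 7, 8 and 9 and at 2.85, 10.6 and 4.0 CPM in severe libraries 13, 14 and 15. The counts behind these values were 12 to 19 in mild and 49 to 189 in severe libraries. The groups did not overlap, and the lowest severe library was above all mild ones. The log2 fold change of 2.5 ± 0.53 (edgeR adjusted p = 0.0867) was the largest among the 8 receptors, and 0.101% of all tested genes had a larger one. Without severe library 14 it was 1.73.

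Clec4n lies in a cluster of myeloid lectin genes. Clec4d, which encodes the partner lectin MCL, lies 15085 bases away and had 5 counts over the mild and 74 over the severe libraries, having passed the filter through the severe libraries alone. Clec4e, which encodes Mincle, a receptor for products of dead cells, lies 34767 bases away and had 4 and 46 counts. It was under the filter. On the Clec7a side of the chromosome, Clec1a, 9590 bases from Clec7a, stood at 3.73 ± 0.69 and 3.97 ± 0.469 CPM (mean ± SD, n = 3). Olr1, the receptor for oxidised lipoproteins 12468 bases away, had 13 counts over the mild and 106 over the severe libraries.

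Clec10a (ENSMUSG00000000318; chromosome 11, plus strand, 70156197 to 70170834), a lectin for galactose and N-acetylgalactosamine, stood at 2.48, 3.17 and 2.75 CPM in mild libraries 7, 8 and 9. In severe libraries 13, 14 and 15 it stood at 3.20, 6.58 and 6.46 CPM. Libraries 14 and 15 were alike and high, while library 13, at 3.20 CPM, stood just above the highest mild library, at 3.17 CPM. This gave a log2 fold change of 0.95 ± 0.30 (adjusted p = 0.134, edgeR).

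Mgl2 (ENSMUSG00000040950; chromosome 11, plus strand, 70130329 to 70137550), its close copy, stood at 8.82, 11.3 and 14.3 CPM in mild libraries 7, 8 and 9 and at 13.5, 26.3 and 25.6 CPM in severe libraries 13, 14 and 15. Here, too, libraries 14 and 15 were high and library 13 fell within the mild range. Mgl2 differed by 0.92 ± 0.28 on the log2 scale (edgeR adjusted p = 0.123). Whether reads from the shared coding run shown above enter both counts was not tested.

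Stab1 (ENSMUSG00000042286; chromosome 14, minus strand, 31139013 to 31168641) encodes stabilin-1, a scavenger receptor for modified lipoproteins and the matrix protein SPARC, and had the most counts. It stood at 58.9, 60.3 and 50.9 CPM in mild libraries 7, 8 and 9 and at 70.4, 133 and 91.0 CPM in severe libraries 13, 14 and 15. The groups did not overlap. Stab1 differed by 0.79 ± 0.21 on the log2 scale (edgeR adjusted p = 0.109), and by 0.51 without severe library 14. Its last 109 bases overlap Nt5dc2 on the plus strand, and without strand reads from this overlap cannot be told apart. Nt5dc2 stood at 19.3 ± 2.93 and 19.1 ± 2.31 CPM (n = 3). The endothelial paralogue Stab2 differed by -0.46 ± 0.18 on the log2 scale (edgeR adjusted p = 0.195). Among the markers of blood and sinusoidal endothelium, Eng differed by 0.39 ± 0.09 (edgeR adjusted p = 0.0885) and Cdh5 by 0.18 ± 0.09 (edgeR adjusted p = 0.251). These 2 of 11 were higher without overlap of the groups, against 17.9% of all tested genes. Stab2 was the 1 lower without overlap, against 16.1%. The median log2 fold change of the 11 was 0.05. All 11 markers together summed to 715 to 817 CPM in mild and 738 to 909 CPM in severe libraries, and none was at 0.

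Cd163 (ENSMUSG00000008845; chromosome 6, plus strand, 124304651 to 124330527) encodes the receptor for haemoglobin-haptoglobin complexes and was low. It had 9, 16 and 16 counts in mild libraries 7, 8 and 9 (0.620, 0.958 and 1.10 CPM) and 18, 45 and 31 counts in severe libraries 13, 14 and 15 (1.05, 2.53 and 1.91 CPM). Library 13 fell within the mild range. The log2 fold change was 1.03 ± 0.40 (edgeR adjusted p = 0.182).

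Marco (ENSMUSG00000026390; chromosome 1, minus strand, 120474538 to 120505024), a collagen-like scavenger receptor for particles, was near its detection limit. It had 0, 1 and 4 counts in mild and 6, 1 and 0 counts in severe libraries. A count of 0 allows up to 3 counts, or 0.207 CPM in mild library 7 and 0.184 CPM in severe library 15. The summed counts were 5 in mild (95% exact Poisson interval 1.62 to 11.7) and 7 in severe libraries (2.81 to 14.4), so a difference was not detectable at this depth. Such limits and intervals cover counting error only.

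Folr2 (ENSMUSG00000032725; chromosome 7, minus strand, 101839990 to 101845331), the folate receptor beta of resident macrophages, was level. It stood at 3.52, 2.87 and 2.33 CPM in mild libraries 7, 8 and 9 and at 3.08, 3.32 and 3.26 CPM in severe libraries 13, 14 and 15. The severe libraries lay inside the mild range and varied less than the mild ones, unlike those of the other 7 tested receptors. Folr2 differed by 0.15 ± 0.21 on the log2 scale (edgeR adjusted p = 0.676), and between 0.02 and 0.31 when any 1 library was left out. Its tubular paralogue Folr1, 12999 bases away, had 414 ± 8.15 CPM after mild and 314 ± 69.6 CPM after severe injury (n = 3), a difference of -0.40 on the log2 scale (edgeR adjusted p = 0.210).

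Lyve1 (ENSMUSG00000030787; chromosome 7, minus strand, 110850607 to 110862953), a hyaluronan receptor, had 8, 3 and 3 counts in mild and 6, 21 and 14 counts in severe libraries. Libraries 14 and 15 were higher than the mild range and library 13 was within it. The sums were 14 counts (95% exact Poisson interval 7.65 to 23.5) and 41 counts (29.4 to 55.6). Without the filter on low counts its log2 fold change was 1.34 ± 0.59 (edgeR adjusted p = 0.255). The 7 lymphatic endothelial markers summed to 46.3 to 56.0 CPM in mild and 53.6 to 73.4 CPM in severe libraries, with none at 0. Of these 7, 2 had an unadjusted p under 0.05 as higher, against 15.8% of all tested genes, and 0 as lower, against 7.89%. The median log2 fold change of the 7 was 0.02. Sema3d differed by 1.04 ± 0.32 on the log2 scale and Pdpn, which podocytes also make, by 0.73 ± 0.24 (edgeR adjusted p = 0.130 and 0.144). The lymphatic factor Prox1 differed by -0.34 ± 0.15 (edgeR adjusted p = 0.215). Whether these cells contribute to the Lyve1 values was not tested.

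**Figure D2:**
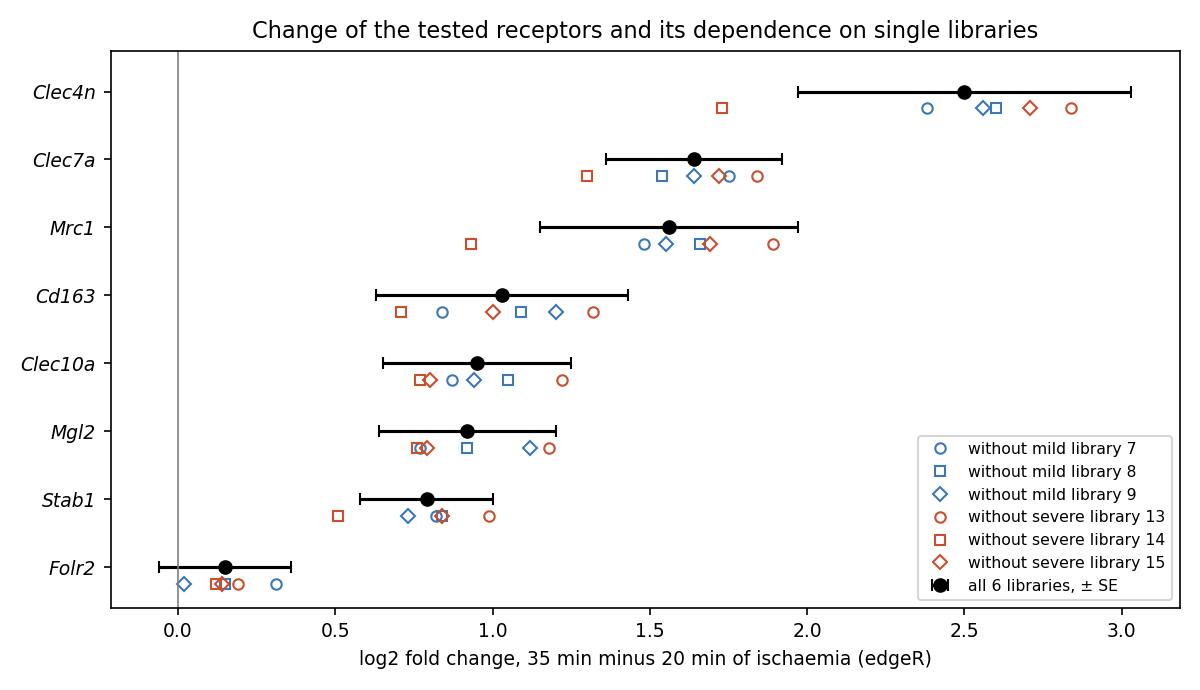
Log2 fold change of the 8 tested receptors, severe minus mild (horizontal axis), from all 6 libraries (black, ± SE) and with each library left out in turn (open symbols). Every value lies above 0, from 0.02 for Folr2 without mild library 9 to 2.84 for Clec4n without severe library 13, and the value without severe library 14 is the lowest for all but Folr2.

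Per kilobase of gene length, the scale on which levels of different genes can be set side by side, the mild kidneys had the order Stab1 (7.09 ± 0.633 CPM per kilobase, mean ± SD, n = 3), Mgl2 (7.02 ± 1.69), Folr2 (2.69 ± 0.548), Mrc1 (2.32 ± 0.287), Clec7a (1.27 ± 0.187), Clec10a (1.20 ± 0.15), Clec4n (0.727 ± 0.12), Cd163 (0.199 ± 0.0547), Lyve1 (0.120 ± 0.0796) and Marco (0.0579 ± 0.075). The ranges of Stab1 and Mgl2, of Folr2 and Mrc1, of Clec7a and Clec10a, and of the last 3 genes in neighbouring steps overlapped. In severe kidneys Mgl2 (13.3 ± 4.4 CPM per kilobase) and Stab1 (12.3 ± 3.98) led, followed by Mrc1 (6.84 ± 4.31), Clec4n (4.15 ± 2.99) and Clec7a (3.93 ± 1.43). Folr2 had rank 6 there, at 2.98 ± 0.114. The ranges of neighbouring genes overlapped throughout these 6, so their order in severe kidneys is not settled by 3 libraries. Clec10a, next at 2.32 ± 0.823, did not overlap with Folr2.

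As a share of the summed level per length of all 10 receptors, Clec4n made up 2.74%, 3.48% and 3.36% in mild libraries 7, 8 and 9 and 6.77%, 11.8% and 6.27% in severe libraries 13, 14 and 15. Clec7a made up 4.63% to 6.75% in mild and 7.62% to 9.28% in severe libraries. These were the receptors whose shares did not overlap between the groups. Folr2 made up 9.29% to 15.1% in mild and 4.78% to 9.52% in severe libraries. Cd163 stood at 0.869% ± 0.209 and 0.862% ± 0.0799 (n = 3).

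**Figure D3:**
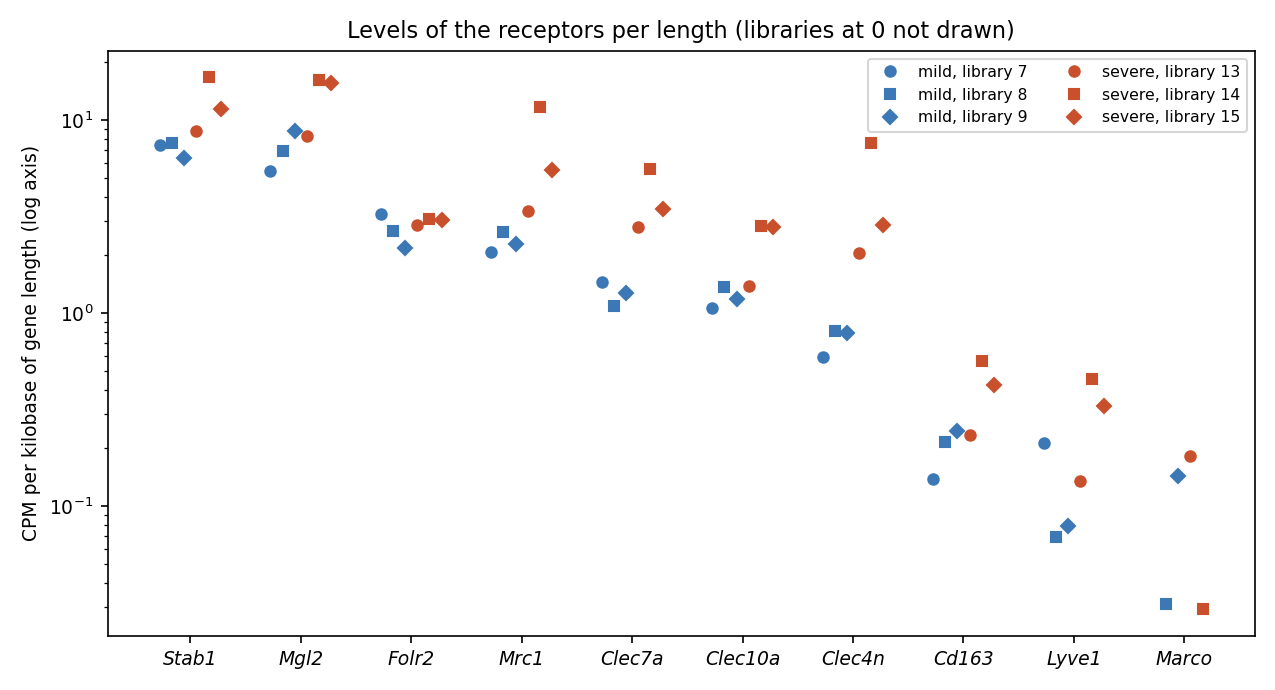
CPM per kilobase of gene length (logarithmic vertical axis) for the 10 receptors, ordered by their mild mean, in each of the 6 libraries; libraries at 0 are not drawn. By group mean, Clec4n goes from rank 7 in mild kidneys (0.727) to rank 4 in severe kidneys (4.15). Clec4n stands above Folr2 in severe library 14 (7.57 against 3.08). It stands below Folr2 in severe libraries 13 (2.03 against 2.86) and 15 (2.85 against 3.02). Folr2 stays between 2.16 and 3.26 in all libraries.

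Whole-kidney RNA cannot tell more macrophages from more receptor RNA per macrophage. The 20 core macrophage genes, among them Lyz2, Mpeg1 and Cybb, had log2 fold changes from 0.03 to 1.73. Their median was 1.11, close to the 0.99 of the receptors. Of these, 19 had an unadjusted p under 0.05 as higher, against 15.8% of all tested genes, 17 stood higher without overlap of the groups, against 17.9%, and 0 passed the adjusted threshold in edgeR. Their CPM summed to 548 to 652 in mild and 957 to 1770 in severe libraries. Lyz2, the macrophage lysozyme, had a log2 fold change of 1.73 ± 0.28, Mpeg1 (perforin-2) one of 1.19 ± 0.20 and the oxidase subunit Cybb one of 1.04 ± 0.17 (edgeR adjusted p = 0.0867 each).

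Each receptor was therefore also set against the mean log2 CPM of these 20 genes in the same library, a ratio that the scaling between libraries leaves almost unchanged. Relative to them Clec4n stood 1.14 higher after severe injury on the log2 scale. The ratio was -4.33, -3.96 and -4.19 in mild libraries 7, 8 and 9 and -3.34, -2.45 and -3.26 in severe libraries 13, 14 and 15, without overlap. Clec7a stood 0.52 higher, with ratios from -2.93 to -2.47 in mild and from -2.31 to -2.21 in severe libraries. Folr2 stood at a difference of -0.86, with ratios from -3.19 to -2.39 in mild and from -4.10 to -3.23 in severe libraries. For each of these 3 the exact two-sided permutation p was 0.1, the smallest that 3 against 3 libraries allow, and 0.267 adjusted over the 8 receptors. The edge of the Folr2 separation is narrow, since mild library 9 stood at -3.19 and severe library 13 at -3.23. With the median over the core genes in place of the mean, the Folr2 groups overlapped (difference -0.72, exact permutation p = 0.2). The log2 fold changes of Clec7a (1.64) and Folr2 (0.15) lay within the range of the single core genes (0.03 to 1.73). That of Clec4n (2.5) lay above it. Folr2 was near the lower end of the range, between the lowest core gene, Mertk (0.03), and the next, Csf1r (0.45).

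The other 5 overlapped. Mrc1 differed by 0.34 (exact permutation p = 0.2, adjusted p = 0.4), and severe library 13, at -0.73, lay among the mild libraries. Stab1 differed by -0.28, Clec10a by -0.16, Mgl2 by -0.14 and Cd163 by -0.13 (exact permutation p from 0.3 to 0.6). Against the 11 markers of blood and sinusoidal endothelium instead of macrophage genes, Stab1 stood 0.70 higher in severe libraries (exact permutation p = 0.1).

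**Figure D4:**
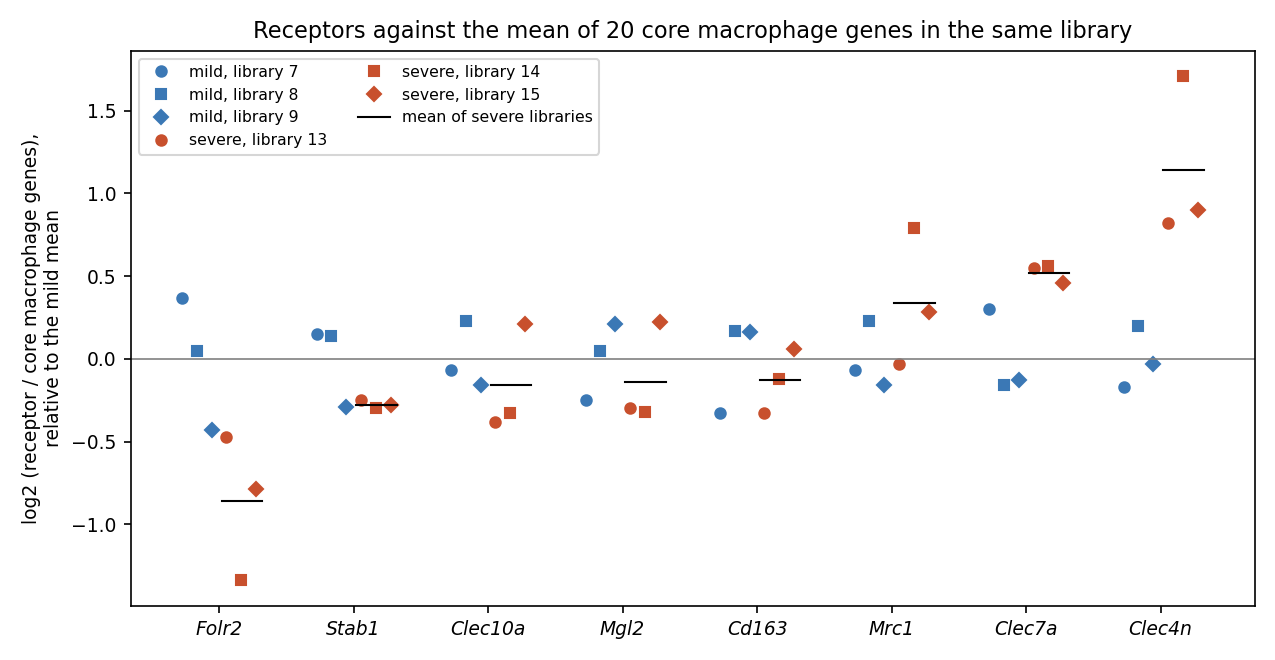
Log2 ratio of each tested receptor to the mean of the 20 core macrophage genes in the same library, set to 0 at the mild mean (vertical axis); points are the 6 libraries and black lines the severe means. Clec4n (1.14) and Clec7a (0.52) lie above all mild libraries, Folr2 (-0.86) lies below them, and the other 5 overlap.

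Other receptors and the signalling below them were compared through lists, in each of which 0 genes passed the adjusted threshold in edgeR. Their counts at an unadjusted p under 0.05 stand against 15.8% of all tested genes as higher and 7.89% as lower. Of 21 tested C-type lectins outside the 10 receptors, 13 had an unadjusted p under 0.05 as higher and 0 as lower (median log2 fold change 0.84). Clec4d, which passed the filter through the severe libraries alone, is among the 13. Clec12a, an inhibitory myeloid lectin, had 3.99 CPM after mild and 9.51 CPM after severe injury (log2 fold change 1.25 ± 0.24), and Cd93, found on endothelium and myeloid cells, had a log2 fold change of 0.59 ± 0.10. In the mannose receptor family, Mrc2, the collagen receptor of fibroblasts, had 38.8 CPM after mild and 109 CPM after severe injury (log2 fold change 1.49 ± 0.26, edgeR adjusted p = 0.0867), while the log2 fold change was 0.65 ± 0.15 for Pla2r1 and 0.23 ± 0.23 for the dendritic cell receptor Ly75. Of 16 tested scavenger receptors outside the 10, 12 were higher and 1, Stab2, lower at an unadjusted p under 0.05 (median 0.88). Without overlap of the groups 11 were higher and 2, Cd36 and Stab2, lower, against 17.9% and 16.1% of all tested genes. Cd36, which had the most counts of this list, stood at 442 CPM after mild and 294 CPM after severe injury (log2 fold change -0.58 ± 0.27, edgeR adjusted p = 0.227). Cd68, a lysosomal glycoprotein of macrophages, stood at 1.27 ± 0.17, the endocytic receptor Lrp1 at 1.31 ± 0.23 and Scarf2 at 1.02 ± 0.19. Of 6 other genes of folate and hyaluronan uptake, 2 were higher and 2 lower at an unadjusted p under 0.05 (median 0.20): the hyaluronan receptor Cd44 (1.63 ± 0.46) and Hmmr (0.78 ± 0.27) stood higher, and Folr1 and the folate transporter Slc46a1 (-0.38 ± 0.14) lower.

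Of 16 genes of the Syk and Card9 pathway, 10 were higher at an unadjusted p under 0.05 and 0 lower, with a median of 0.46, below the 0.99 of the receptors. The signalling chains Fcer1g, which couples Dectin-2 to Syk, and Tyrobp, which couples related receptors, stood at 0.76 ± 0.19 and 0.99 ± 0.25, and the Src-family kinase Fgr at 1.32 ± 0.27. Of 21 tested genes listed for the induction of the alternative state, 13 were higher at an unadjusted p under 0.05 and 0 lower. Their log2 fold changes ran from -0.27 to 1.81 (median 0.46). Il4 stood at 0.30 ± 0.24 and Stat6 at 0.09 ± 0.08 (edgeR adjusted p = 0.433 and 0.494), and Il13 had 1 count in all. Il33, an alarmin, had 7.79 CPM after mild and 27.3 CPM after severe injury (log2 fold change 1.81 ± 0.28, edgeR adjusted p = 0.0867), while the log2 fold change was 0.73 ± 0.17 for the Csf1r ligand Il34 and 1.66 ± 0.39 for the cytokine inhibitor Socs3.

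Of 12 tested other genes of the alternative state, 9 were higher at an unadjusted p under 0.05 (median 1.64). Arg1 is among the 9 and passed the filter through the severe libraries alone (0 to 0.12 CPM in mild, 0.861 to 5.46 CPM in severe libraries). Retnla, Chil3, Chil4, Ccl24 and Pdcd1lg2 were under the filter. Il1rn, the interleukin-1 antagonist, stood at 2.14 ± 0.47 and fibronectin (Fn1), which fibroblasts also make, at 2.10 ± 0.39. Of 15 markers of resident perivascular macrophages, 8 were testable, 2 of them had an unadjusted p under 0.05 as higher, near the 15.8% of all tested genes, and the median was 0.24. The coagulation factor gene F13a1 stood at 2.33 ± 0.56 and the platelet-factor gene Pf4 at 1.39 ± 0.43. The Pf4 groups overlapped, with 1.98 CPM in severe library 13 and 2.04 CPM in mild library 8. The other tested markers were Ccl8 (1.34 ± 0.67), Cbr2 (0.32 ± 0.22), Ltc4s (0.17 ± 0.45), Ednrb (0.07 ± 0.17), Gas6 (0.00 ± 0.13) and Maf (-0.27 ± 0.14). The list's CPM summed to 807 to 849 in mild and 686 to 847 in severe libraries, a sum in which Gas6 and Maf, expressed by other kidney cells as well, weigh most.

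Markers of other myeloid cells that can carry these receptors also stood higher in severe kidneys. Of 9 tested monocyte markers 8 had an unadjusted p under 0.05 as higher (median 1.08), and the list summed to 38.2 to 42.0 CPM in mild and 62.5 to 136 CPM in severe libraries. The chemokine receptor Ccr2 stood at 1.42 ± 0.26. Of 16 dendritic cell markers 12 were higher at that p (median 0.69, range 0.49 to 1.27). The list summed to 818 to 1110 CPM in mild and 1230 to 1950 CPM in severe libraries. The antigen-presentation genes Cd74, H2-Ab1, H2-Eb1 and H2-Aa weigh most in this sum, with mild means of 401, 177, 171 and 155 CPM. The integrin Itgax stood at 1.20 ± 0.18. Of 11 neutrophil markers 2 were testable, the list summed to 3.84 to 5.93 CPM in mild and 9.94 to 20.4 CPM in severe libraries, and the defining marker Ly6g had 1 count in all. The part of these cells in the receptor values was not tested.

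Across all tested genes, the profile over the 6 libraries nearest to the mean profile of the 8 receptors was that of Apoe, the apolipoprotein of lipid-laden macrophages and other cells. Its root mean square difference from that mean was 0.050 on the log2 scale. Cmtm3 (0.054), vimentin (Vim, 0.067), the receptor kinase Axl (0.073) and Actn1 (0.075) followed. The mean receptor profile, set to the mild mean, was 0.52, 1.62 and 1.10 in severe libraries 13, 14 and 15, and that of Apoe was 0.51, 1.72 and 1.11. Among pairs of receptors, Cd163 and Mgl2 differed least (0.12), followed by Clec10a and Mgl2 (0.19), and Clec4n and Folr2 differed most (1.54).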

How the data were processed

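Libraries were prepared from poly-T-selected, DNase-treated kidney RNA (TRIzol, NEBNext Ultra), per the labels' protocols. The tools named per the submitters' processing notes are HTSeq 0.6.1, TopHat2 2.0.12 and Bowtie2 2.2.3, with the mm10 build. Their roles, the strand setting, the counting mode and the annotation are not stated. The authors deposited raw read counts per Ensembl gene. Each column was assigned to a group from the minutes in its name, since its number matched no sample title, and 0 columns of per-sample values were left out. No label ties kidneys to separate mice, so p-values measure the spread between these samples, which may be technical.

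The 10 genes and the 15 comparison lists were chosen with earlier results of these data known. Filtering by filterByExpr kept 14883 of 35275 genes. They were scaled by TMM (factors 0.943 to 1.17) and tested with the robust quasi-likelihood F test of edgeR 4.0.16 (R 4.3.3). Adjustment by Benjamini-Hochberg ran over all tested genes. Standard errors were taken as log2 fold change over the root of F. CPM uses the counts of the kept genes times the TMM factor as library size, and log2 CPM a prior count of 2. Every symbol of the lists was found, Adgre1 as Emr1. Per-length levels divide CPM by the gene length in the table. The planned protein comparison was replaced by one of GENCODE M21 transcripts in 50-base stretches, chosen after the data were seen. Besides the 10 receptors, the text names from each list up to 3 genes with the smallest p, the 5 genes nearest in profile, and close neighbours on the chromosome. Ly6g, Gas6, Maf, Il4, Il13, Stat6, Retnla, Chil3, Chil4, Ccl24 and Pdcd1lg2 were chosen after their values were seen. So were Cd36, Cd74, H2-Ab1, H2-Eb1, H2-Aa, Mertk, Csf1r, Cbr2, Ltc4s and Ednrb. Alternatives were other scalings, filters and tools (DESeq2 1.42.0, limma 3.58.1), leaving out each library, and other reference genes.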

Additional observations from a re-analysis of the deposited data

How the results depend on the processing

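None of the 8 tested receptors changed direction under any scaling, filter or tool run, or with any 1 library left out. The number passing the adjusted threshold was 0 in edgeR with all libraries and 1 without a filter on low counts. It was 5 with DESeq2, 0 with limma-voom without weights and 7 with limma-voom and quality weights. With 1 library left out it lay between 0 and 7, with 7 without severe library 13, 2 without severe library 14 and 0 without any other. Over all genes 2 passed in edgeR, 146 without the filter, 1160 with DESeq2, 2 with limma-voom without weights and 5041 with quality weights. In edgeR 3269 passed without severe library 13, 501 without severe library 14 and 1 without severe library 15. With library totals as scaling 1 passed. Without any 1 mild library 0 passed, and 2137 to 2345 had an unadjusted p under 0.05 in edgeR. The cause was not tested. Library totals moved the median of all genes by 0.17; relative to it the median of the receptors was 1.01 and Folr2 stood at 0.15. Against macrophage genes, Cd163 turned to 0.02 and Mgl2 to 0.01 with the median over the core genes. Clec10a turned to 0.12 and Mgl2 to 0.14 against dendritic cell markers, and Stab1 to 0.70 against endothelial markers. Clec4n (0.86 to 1.30), Clec7a (0.44 to 0.80), Mrc1 (0.12 to 0.53) and Folr2 (-1.08 to -0.63) kept their direction under every alternative run for these ratios. Counts under 20 in some or all libraries limit Cd163, Lyve1, Marco and the mild values of Clec4n. No paired analysis was possible because the groups share no replicate number.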
